A study of Mus musculus with 12 samples.

Results

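The genes described here drive mitosis and build the spindle, and the measurement is how accessible the chromatin at and around them was in germinal center B cells with and without Pbrm1. They were taken as a list of 53 genes by name, and a site belonged to a gene when its midpoint had that gene as the nearest protein-coding RefSeq gene span within 50 kb. Of 68689 accessible sites (peaks of 501 bp, mm10), 191 met this rule at 49 of the 53 genes. Foxm1, Kif11, Kif20a and Plk4 had no assigned peak. Of the 191 peaks, 64 had their midpoint within 1 kb of either end of the gene (gene-end peaks), 58 lay elsewhere inside a gene and 69 were intergenic. Exons, introns and untranslated regions are not told apart here.

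The mice were C57BL/6, 8 to 10 weeks old, and germinal center B cells were sorted from the spleen. The assay was Omni-ATAC-seq, where the enzyme Tn5 cuts open chromatin and tags the fragments for sequencing. The 4 groups were Pbrm1-/- (HOMO) CB, Pbrm1+/+ (WT) CB, Pbrm1-/- (HOMO) CC and Pbrm1+/+ (WT) CC, each with 3 libraries, 12 in all. Pbrm1 encodes BAF180, a subunit that sets the PBAF remodeling complex apart from its SWI/SNF relatives. The labels do not spell out CB and CC, do not say how the allele was made or which part of Pbrm1 it removes, and name no separate mouse for each library, so the p-values measure the spread between libraries, which may be technical. In the count table, column names start with Pbrm1AID, a prefix that no label explains.

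Mitosis genes are transcribed late in the cell cycle, shortly before the cell divides. Many of their promoters are bound by the NF-Y factor at CCAAT boxes and by the MuvB complex at a short element called the cell cycle genes homology region (CHR), where MuvB represses as part of the DREAM complex and activates together with B-Myb and FOXM1. In a germinal center, cells of the dark zone divide rapidly and cells of the light zone are selected for antigen binding, so these genes are known there as a mark of dividing cells.

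Counts in peaks summed to 6431354 in the shallowest library (HOMO CC 1) and 45590454 in the deepest (HOMO CB 3). WT CC 2 and WT CB 2 stood apart at a peak in Xist, with 0.782 and 0.458 CPM (counts scaled to the library total) against 4.73 to 17.2 CPM in the other 10 libraries; no label gives the sex of the animals. Results without these libraries, and without the shallow HOMO libraries numbered 1, are in the closing section. The gene-end peak of Pbrm1 had log2 fold changes of -0.04 in CB and -0.09 in CC (HOMO against WT, adjusted p = 0.931 and 0.855), which does not check the genotype, since the deleted part is not known. All 7 germinal center B cell markers and all 5 B cell markers had peaks. Of T cell markers 3 of 7 had one, and only Cd3d had one at a gene end (18.3 to 24.3 CPM over the 4 groups), while myeloid markers had peaks at 5 of 6 genes and none at a gene end. In such bulk data, a smaller share of cells of one kind and less accessible chromatin per cell cannot be told apart.

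The promoters of 7 genes are shown, chosen by a call at the gene start or, failing that, by how open the gene end was. Spc25 and Cdca8 were the genes whose main start peak was called lower in HOMO CB, and Mad2l1, Ube2c, Ncapd2, Ttk and Cenpf had the 5 most open gene-end peaks. Each sequence is from RefSeq (GRCm38.p6), runs 5′ to 3′ on the gene's strand from 250 bases before to 50 after the start, and has in capitals each match to the CHR letters or to CCAAT on either strand. Spc25 lies at chr2:69206164-69206463 (minus strand), Cdca8 at chr4:124936868-124937167 (minus), Mad2l1 at chr6:66534971-66535270 (plus), Ube2c at chr2:164769679-164769978 (plus), Ncapd2 at chr6:125191537-125191836 (minus), Ttk at chr9:83834439-83834738 (plus) and Cenpf at chr1:189688037-189688336 (minus).
Spc25: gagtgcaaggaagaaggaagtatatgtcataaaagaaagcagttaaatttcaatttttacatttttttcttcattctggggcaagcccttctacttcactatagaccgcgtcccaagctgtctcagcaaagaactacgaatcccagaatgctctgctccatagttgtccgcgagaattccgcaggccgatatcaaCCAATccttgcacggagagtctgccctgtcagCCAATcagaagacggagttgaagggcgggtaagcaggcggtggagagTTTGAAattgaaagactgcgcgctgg
Cdca8: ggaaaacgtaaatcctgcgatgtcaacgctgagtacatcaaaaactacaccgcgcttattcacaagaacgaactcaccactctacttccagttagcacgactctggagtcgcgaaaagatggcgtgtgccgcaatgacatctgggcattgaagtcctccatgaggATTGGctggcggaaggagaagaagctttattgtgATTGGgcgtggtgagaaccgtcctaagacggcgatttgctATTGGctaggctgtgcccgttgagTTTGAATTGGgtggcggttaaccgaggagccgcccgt
Mad2l1: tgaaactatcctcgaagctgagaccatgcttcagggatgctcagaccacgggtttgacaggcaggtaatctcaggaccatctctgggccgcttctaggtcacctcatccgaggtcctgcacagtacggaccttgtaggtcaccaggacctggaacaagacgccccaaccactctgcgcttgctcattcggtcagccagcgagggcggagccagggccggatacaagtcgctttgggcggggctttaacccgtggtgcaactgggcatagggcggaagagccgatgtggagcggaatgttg
Ube2c: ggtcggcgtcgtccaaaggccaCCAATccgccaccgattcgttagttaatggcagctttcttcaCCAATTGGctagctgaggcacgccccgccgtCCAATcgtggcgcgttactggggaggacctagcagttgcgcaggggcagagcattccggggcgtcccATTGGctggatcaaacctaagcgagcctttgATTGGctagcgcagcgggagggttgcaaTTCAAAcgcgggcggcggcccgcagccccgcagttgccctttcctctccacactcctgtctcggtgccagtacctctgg
Ncapd2: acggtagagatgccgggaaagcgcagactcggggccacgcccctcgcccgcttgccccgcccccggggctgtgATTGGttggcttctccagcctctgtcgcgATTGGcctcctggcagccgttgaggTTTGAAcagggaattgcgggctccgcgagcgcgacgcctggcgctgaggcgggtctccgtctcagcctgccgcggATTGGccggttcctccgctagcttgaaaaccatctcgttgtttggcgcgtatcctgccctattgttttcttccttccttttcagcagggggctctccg
Ttk: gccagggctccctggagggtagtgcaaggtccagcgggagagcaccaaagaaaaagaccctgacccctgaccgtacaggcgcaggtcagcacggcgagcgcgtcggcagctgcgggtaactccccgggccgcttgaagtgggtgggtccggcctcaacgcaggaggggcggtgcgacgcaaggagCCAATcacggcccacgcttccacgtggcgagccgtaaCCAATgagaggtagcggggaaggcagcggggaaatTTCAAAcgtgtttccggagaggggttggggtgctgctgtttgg
Cenpf: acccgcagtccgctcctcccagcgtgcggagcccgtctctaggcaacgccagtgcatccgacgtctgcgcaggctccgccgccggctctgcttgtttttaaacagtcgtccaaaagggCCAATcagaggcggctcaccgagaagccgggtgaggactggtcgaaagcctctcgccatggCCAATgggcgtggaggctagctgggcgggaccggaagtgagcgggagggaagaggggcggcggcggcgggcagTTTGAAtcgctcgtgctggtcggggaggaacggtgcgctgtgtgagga

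Of these 7 promoters, 5 lay wholly inside their peak, and the peaks covered 279 of 300 bases at Spc25 and 287 of 300 at Ube2c. The letters TTTGAA or TTCGAA, the CHR, were found on either strand in 34 of the 44 promoters of these genes that the RefSeq table holds (77.3%), against 19.4% of all 27025 promoters. CCAAT was found in 31 of 44 (70.5%, against 37.9% of all), and CHR and CCAAT together in 29 of 44 (65.9%, against 7.7%). GGCGC, the core of the E2F motif, was found in 65.9% of the 44 and 37.1% of all. Among the printed sequences, Mad2l1 held none of the 3 motifs, while Cdca8 held 4 CCAAT matches and Ube2c 6. In Cdca8 a CHR match overlaps a CCAAT match on the opposite strand, and in Ube2c 2 CCAAT matches overlap. A match is a description of the letters and not a binding site.

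Gene-end peaks at these genes were well open in every group. For the 46 genes that had one, the most open gene-end peak (the main gene-end peak) had an average log2 CPM over the 12 libraries of 4.20 to 6.28, with a median of 5.42. Since every peak has the same length, these levels can be set side by side. Of the 64 gene-end peaks, 55 lay at a gene start, 1 (at Ndc80) at a gene finish, and 8 at genes whose strand is not in the promoter table. The median level was 5.07 log2 CPM over the 64 gene-end peaks and 4.47 over all 15782 gene-end peaks of the table. The order was the other way round for the 58 inside peaks, with a median of 2.12 log2 CPM against 2.69 over all 32048 inside peaks. A neighbouring gene's end lay within 1 kb of 11 of the main gene-end peaks, such as Oip5 beside Nusap1, Cstf1 beside Aurka and Mrpl51 beside Ncapd2, and accessibility there cannot be credited to one gene.

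Among the genes of entry into mitosis, Cdc25c (5.84 log2 CPM) and Cdc25b (5.46), phosphatases that activate Cdk1, and Cdca3 (5.83), a trigger of mitotic entry, were the most open at their ends. Levels at the cyclins Ccnb1 and Ccnb2 were 5.08 and 4.98, and the level at their kinase Cdk1 was 5.0. Ccna2, which encodes cyclin A2, had inside peaks and no gene-end peak. In the kinase and chromosomal passenger group, levels were 6.01 at Incenp, the scaffold of the passenger complex, 5.89 at its kinase Aurkb, 5.29 at Birc5 (survivin) and 5.06 at Cdca8 (borealin). The spindle pole kinase Aurka had 5.33 and Plk1, which acts throughout mitosis, 4.83.

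The spindle checkpoint holds anaphase until every chromosome is attached, and the anaphase-promoting complex then marks securin and cyclin B for destruction. The checkpoint genes Mad2l1 (6.28) and Ttk (6.05) and the ubiquitin-conjugating enzyme gene Ube2c (6.19) were among the 5 most open. Levels were 5.62 at Bub3, 5.43 at Bub1b, 4.90 at Bub1, 5.41 at the activator Cdc20 and 5.10 at Espl1, which encodes separase. Pttg1, which encodes securin, had no gene-end peak by this rule. At the kinetochore, where microtubules hold the chromosome, Cenpf had 6.03, the centromeric histone gene Cenpa 5.74 and Spc25 5.59. Its partners in the Ndc80 complex, Ndc80 and Nuf2, had 5.17 and 4.46, and the kinesin gene Cenpe 4.56.

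Among the kinesin motors, levels were 5.87 at Kif23, 5.65 at Kif14, 5.35 at Kif20b, 4.85 at Kif15 and 4.60 at Kif2c, and Kif18a had inside peaks and none at its ends. Condensin, which folds chromosomes for division, was represented by Ncapd2 (6.10), Ncapg (5.79), Ncaph (4.85), Smc2 (4.65) and Smc4 (4.20, the lowest of the 46). Mki67, which encodes a coat protein of mitotic chromosomes, had 5.69 and the topoisomerase gene Top2a 5.40. The spindle assembly genes Nusap1, Tpx2 and Hmmr had 5.60, 5.47 and 5.31. For cytokinesis, the final split of the cell, levels were 6.02 at Ect2, 5.87 at Prc1, 5.72 at Anln and 4.98 at Racgap1. The helicase gene Pif1 had 4.37.

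**Figure D1:**
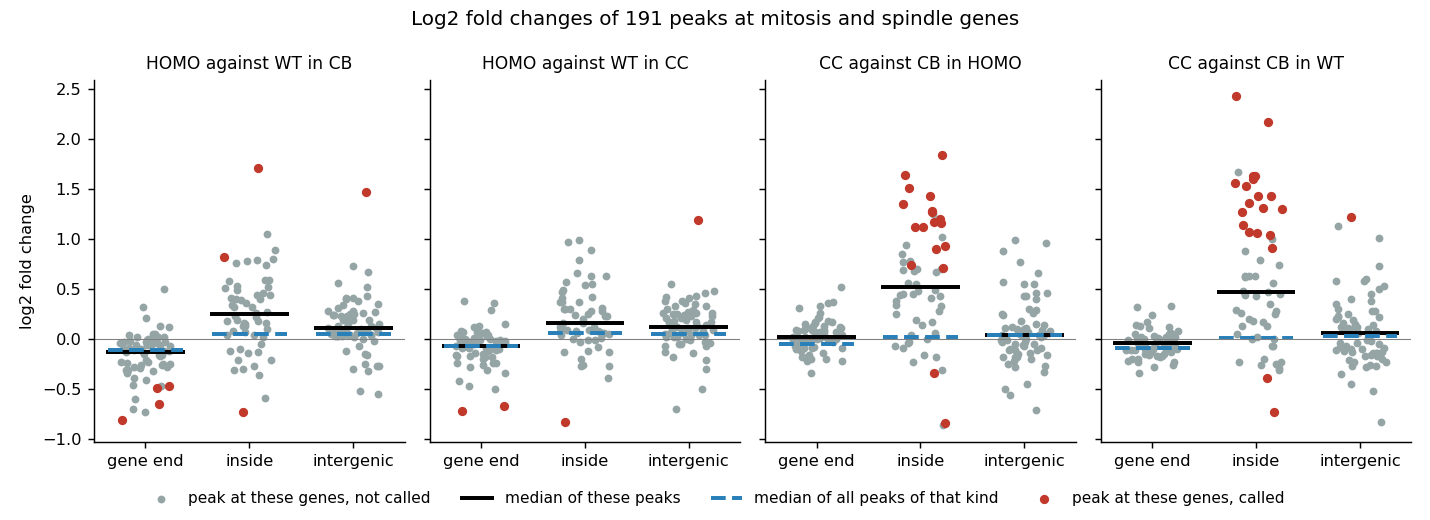
Log2 fold change (y axis) of each of the 191 peaks in 4 comparisons, split into gene-end, inside and intergenic peaks. Red points passed the test, black bars are medians of these peaks and dashed bars medians of all peaks of the same kind. The inside peaks stand above the dashed bar most in the CC against CB panels, with medians of 0.52 in HOMO and 0.47 in WT, while no gene-end peak passed the test there in the fit plotted, which does not pair libraries.

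The first comparison set Pbrm1-/- against Pbrm1+/+ libraries in CB. Most did not pass the test: 8 of 191 were called, 3 higher and 5 lower in HOMO CB, against 4.63% of all peaks. Of the 64 gene-end peaks, 0 were called higher and 4 lower (0.253% and 9.19% of all gene-end peaks), so the share of losses, 6.25%, was near that of gene ends in general. The 4 lay at the starts of Spc25, Cdca8, Mki67 and Cdk1. Of the 127 other peaks, 3 were higher and 1 lower (0.936% and 2.25% of all such peaks). A peak was called when its p from edgeR's quasi-likelihood test, adjusted over all peaks by the Benjamini-Hochberg method, was under 0.05.

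Spc25 encodes a subunit of the Ndc80 complex that ties kinetochores to microtubules. Its start peak (chr2:69205942-69206442, centred 21 bp from the gene's end) had 34.3, 42.3 and 43.3 CPM in HOMO CB, against 56.3, 54.9 and 56.8 CPM in WT CB. Every HOMO CB library lay below every WT CB library, and the log2 fold change was -0.47 (SE 0.09, adjusted p = 0.0082). In CC the same peak had 47.3, 45.2 and 43.1 CPM in HOMO libraries and 50.2, 48.3 and 52.9 CPM in WT libraries. These groups did not overlap either, but the difference of -0.16 did not pass the test (adjusted p = 0.397).

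Cdca8 encodes borealin, which guides the chromosomal passenger complex to centromeres. Its start peak (chr4:124936667-124937167) had 22.5, 27.9 and 30.1 CPM in HOMO CB, against 38.8, 37.4 and 38.3 CPM in WT CB. All 3 HOMO CB values were below the WT CB values (log2 fold change -0.49, SE 0.11, adjusted p = 0.0167). In CC the groups overlapped, with 33.4, 31.6 and 30.5 CPM in HOMO and 39.7, 31.4 and 35.9 CPM in WT (-0.17, adjusted p = 0.478). The Spc25 call held whichever library was left out. The Cdca8 call was lost without HOMO CB 2 (adjusted p = 0.0835) or WT CB 1.

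At Mki67 and Cdk1 the called peak was a weaker one beside the main start peak. The Mki67 side peak, 650 bp into the gene (chr7:135715550-135716050), had 12.2, 9.28 and 6.19 CPM in HOMO CB, against 17.2, 14.4 and 14.5 CPM in WT CB (log2 fold change -0.81, SE 0.19, adjusted p = 0.0208). In CC it had 10.8, 8.38 and 7.92 CPM in HOMO and 13.3, 14.9 and 15.2 CPM in WT (-0.72, SE 0.19, adjusted p = 0.0482). HOMO was below WT in every library of both populations. The main Mki67 start peak, with an average level of 5.69 log2 CPM against 3.58 at the side peak, had a log2 fold change of -0.01 in CB and 0.04 in CC.

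Cdk1 encodes the kinase that, with cyclin B, starts mitosis. Its side peak, 559 bp into the gene (chr10:69352103-69352603), had 6.81, 5.45 and 5.43 CPM in HOMO CB, against 10.0, 8.25 and 8.79 CPM in WT CB (log2 fold change -0.65, SE 0.18, adjusted p = 0.0398). In CC it had 9.02, 7.0 and 6.05 CPM in HOMO and 12.3, 10.7 and 11.1 CPM in WT (-0.68, SE 0.18, adjusted p = 0.0428). The groups did not overlap in either population. The main Cdk1 peak had -0.34 in CB and did not pass the test (adjusted p = 0.0646).

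Ccna2 encodes cyclin A2, the partner of Cdk2 and Cdk1 in S phase and early mitosis. A peak inside it, 1561 bp from its nearer end (chr3:36571227-36571727), had 9.30, 5.94 and 5.38 CPM in HOMO CB, against 10.5, 10.2 and 11.6 CPM in WT CB (log2 fold change -0.73, SE 0.19, adjusted p = 0.0318). In CC it had 6.51, 5.66 and 5.42 CPM in HOMO and 9.39, 11.3 and 10.0 CPM in WT (-0.83, SE 0.19, adjusted p = 0.024). HOMO libraries were lower than WT libraries throughout. Each of the Mki67, Cdk1 and Ccna2 calls was lost in both populations when any of several single libraries was left out (highest adjusted p of 0.137, 0.196 and 0.192 in CB, and 0.249, 0.224 and 0.161 in CC).

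The gains were at weakly open sites away from gene ends. A peak 21500 bp from Incenp (chr19:9920739-9921239) had 6.55, 4.72 and 3.61 CPM in HOMO CB, against 1.56, 2.06 and 1.66 CPM in WT CB (log2 fold change 1.47, SE 0.26, adjusted p = 0.0044). In CC it had 3.84, 4.17 and 4.44 CPM in HOMO and 2.33, 1.69 and 1.62 CPM in WT (1.19, SE 0.26, adjusted p = 0.0191). HOMO exceeded WT in every library of both populations, and the CB call held whichever library was left out, while the CC call was lost without HOMO CC 2, HOMO CC 3, WT CC 2 or WT CC 3 (adjusted p of up to 0.123). Incenp is the nearest gene, which does not show that the site acts on it.

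Nusap1 encodes a protein that bundles spindle microtubules. A peak at 66.4% of its length from the start (chr2:119639221-119639721) had 3.67, 3.06 and 3.39 CPM in HOMO CB, against 0.683, 0.916 and 1.33 CPM in WT CB (log2 fold change 1.70, SE 0.33, adjusted p = 0.0069). In CC the groups overlapped, with 6.95, 10.3 and 10.3 CPM in HOMO and 3.26, 4.82 and 7.86 CPM in WT (0.78, adjusted p = 0.107). The CB call was lost without WT CB 1 (adjusted p = 0.0578).

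Smc4 encodes a core ATPase of condensin. A peak inside it (chr3:69020199-69020699) had 4.72, 4.47 and 3.50 CPM in HOMO CB, against 2.15, 2.63 and 2.35 CPM in WT CB (log2 fold change 0.82, SE 0.23, adjusted p = 0.0437). The groups did not overlap in CB, but this call kept its place in only 2 of the 12 fits that left out a library (adjusted p of up to 0.205). In CC the groups overlapped and the log2 fold change was 0.04 (adjusted p = 0.959).

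**Figure D2:**
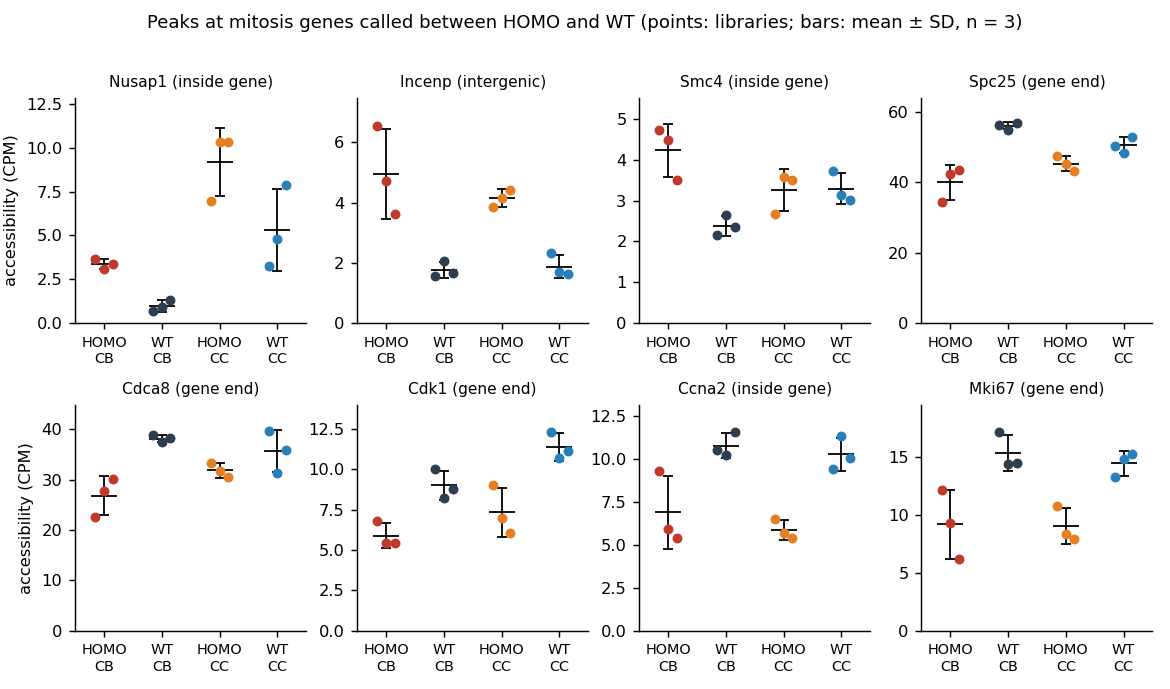
Accessibility (CPM, y axis from 0) of the 8 peaks called between HOMO and WT, with 1 point per library and the mean ± SD of 3 libraries, in HOMO CB, WT CB, HOMO CC and WT CC. At Incenp, Cdk1, Ccna2 and Mki67 the HOMO points stand apart from the WT points in both populations, and at Spc25 and Cdca8 the gap is widest in CB.

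Taken one by one, the other main gene-end peaks did not pass the test. In CB, 37 of the 46 had a log2 fold change under 0, and the range was -0.49 to 0.21. Values below 0 prevailed at gene ends in general: 31.1% of all gene-end peaks were above 0 in CB, and 18.8% of the 64. The median over all 64 gene-end peaks was -0.13, against -0.11 over all gene-end peaks of the table. It was more negative in the 14 weaker peaks (under 4 log2 CPM) than in the 50 stronger ones (-0.35 and -0.10), as it was among all gene-end peaks (-0.26 and -0.07). By role, the 6 main peaks of the entry group were all below 0 (Cdk1 -0.34, Ccnb2 -0.25, Cdc25b -0.17, Cdc25c -0.15, Cdca3 -0.13 and Ccnb1 -0.09), and none passed the test. In the checkpoint group the values ran from -0.28 at Bub3 to 0.21 at Mad2l1. Mad2l1 had the highest value of the 46, and its HOMO CB and WT CB libraries did not overlap, but it did not pass the test (adjusted p = 0.197). The kinesin gene Kif15 had -0.41, also short of the threshold (adjusted p = 0.0618).

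Away from gene ends the balance was the other way. In CB, 45 of the 58 inside peaks had a log2 fold change above 0, with a median of 0.25, against 57.2% and a median of 0.05 for all inside peaks. For the 69 intergenic peaks the median was 0.11, against 0.05 for all intergenic peaks. All 5 inside peaks of the spindle assembly genes and all 4 of the kinetochore genes were above 0, with medians of 0.59 and 0.58, and 1 of these 9, the Nusap1 peak above, passed the test. These peaks come from few genes: Nusap1 held 4 of the 5 and Tpx2 held 1, while Cenpe and Cenpf held 2 each.

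In CC, 4 of the 191 peaks were called, 1 higher and 3 lower in HOMO, against 2.75% of all peaks. At gene ends 0 were higher and 2 lower (0.196% and 5.59% of all gene-end peaks), and elsewhere 1 was higher and 1 lower (0.692% and 1.15% of all such peaks). All 4 were also called in CB: 1 of the 3 higher and 3 of the 5 lower CB calls were shared, which is 33.3% and 60% of the CB lists and 100% of the CC lists. No such overlap is given over all called peaks, so it is not shown to be particular to these genes. The medians were -0.07 at gene ends and 0.13 elsewhere, against -0.07 and 0.06 over all such peaks. None of the 4 held whichever library was left out.

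The difference between the effects in CC and in CB was tested directly, but not with CC and CB libraries paired within a genotype. None of the 191 peaks was called by edgeR, nor by DESeq2, and 0.0% of all peaks were (smallest adjusted p of 1 among the 191). An unadjusted p under 0.05 was found at 3 of the 191, and at 810 of all 68689 peaks, so the members' share was near the general one. The peaks called in CB alone are therefore not shown to respond differently in CC. Marker lists of B cells and plasma cells moved with genotype in both populations. Gene-end peaks of the plasma cell list (4 of 4 genes) summed to 158 to 173 CPM in HOMO CB and 176 to 178 CPM in WT CB, and to 148 to 156 CPM in HOMO CC and 160 to 166 CPM in WT CC. Jchain went the other way in CB, at 37.5 to 39.8 CPM in HOMO CB and 29.4 to 34.5 CPM in WT CB. The sums of the B cell list (5 of 5 genes) were higher in HOMO, at 349 to 360 CPM in HOMO CB and 319 to 330 CPM in WT CB, and at 314 to 380 CPM in HOMO CC and 299 to 309 CPM in WT CC. In CC alone the groups also did not overlap for the germinal center list (6 of 7 genes), with 205 to 210 CPM in HOMO CC and 187 to 198 CPM in WT CC, and for the natural killer list (2 of 5 genes), with 4.88 to 5.77 CPM in HOMO CC and 6.29 to 7.82 CPM in WT CC. The part of these markers in the result was not tested.

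The second comparison set CC against CB within each genotype. Here 14 sites inside 8 of the genes were called more open in CC in both genotypes, and no site at a gene end was called in either without pairing of libraries, while a paired fit called 3 in HOMO and 6 in WT. In HOMO, 16 of 58 inside peaks were called higher and 2 lower in CC (27.6% and 3.45%), against 5.66% and 2.82% of all inside peaks, and 7.22% of all peaks were called. In WT, 18 were higher and 2 lower (31.0% and 3.45%), against 4.2% and 2.41% of all inside peaks, and 5.43% of all peaks were called. The median log2 fold change of the inside peaks was 0.52 in HOMO and 0.47 in WT, against 0.02 and 0.01 for all inside peaks. In each genotype, 29 of the 58 had every CC library above every CB library, against 15.7% of all inside peaks in HOMO and 14.5% in WT.

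At the gene ends 0 of 64 peaks were called in either genotype by the unpaired fit, against 1.96% of all gene-end peaks in HOMO and 1.39% in WT. At an unadjusted p under 0.05 there were 1 in HOMO and 5 in WT, against 1442 and 1966 of all 15782 gene-end peaks. DESeq2 called 0 in both. Of all gene-end peaks it called 1.29% higher and 1.19% lower in HOMO, and 0.697% higher and 1.19% lower in WT. With CC and CB libraries paired by number, 1 was higher and 2 lower in HOMO and 0 higher and 6 lower in WT (4.31%, 8.06%, 3.19% and 14.8% of all gene-end peaks). The medians were 0.01 in HOMO and -0.04 in WT, against -0.05 and -0.09 over all gene-end peaks. When library scaling followed abundance, the WT median turned to 0.03, against -0.008 over all gene-end peaks. Of the 69 intergenic peaks, edgeR called 0 in HOMO (8 at an unadjusted p under 0.05, against 4753 of all 20859 intergenic peaks) and 1 in WT, at Ect2, against 9.26% and 6.68% of all intergenic peaks. DESeq2 called 0 higher and 1 lower of the intergenic peaks in HOMO (6.64% and 3.75% of all intergenic peaks). In WT it called 2 higher and 0 lower (4.91% and 3.04% of all). Both comparisons of CC with CB use libraries of the genotype comparisons, so no correlation or overlap is given across them, while those in HOMO and in WT have no library in common.

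Nusap1 led this pattern, with all 4 of its inside peaks called higher in CC in both genotypes. The peak at 66.4% of its length had 6.95, 10.3 and 10.3 CPM in HOMO CC, against 3.67, 3.06 and 3.39 CPM in HOMO CB (fold change 1.50 on the log2 scale, SE 0.27, adjusted p = 0.0017). In WT it had 3.26, 4.82 and 7.86 CPM in CC, against 0.683, 0.916 and 1.33 CPM in CB (2.42, SE 0.32, adjusted p = 2.4e-04). Every CC library was above every CB library of its genotype. The other 3, at 10.3%, 58.6% and 81.0% of the length, had log2 fold changes of 1.28, 1.12 and 0.93 in HOMO and 1.36, 1.14 and 1.63 in WT, while the Nusap1 start peak had 0.04 in HOMO and -0.01 in WT.

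Kif15 encodes a kinesin that helps to keep the spindle bipolar, and both of its inside peaks were called in both genotypes. The peak at 70.1% of its length (chr9:122998286-122998786) had 3.70, 5.66 and 5.60 CPM in HOMO CC, against 2.10, 1.93 and 1.21 CPM in HOMO CB (a log2 change of 1.63, SE 0.27, adjusted p = 8.8e-04). Its WT values were 4.58, 5.42 and 5.47 CPM in CC, against 0.732, 1.49 and 1.33 CPM in CB (2.17, SE 0.29, adjusted p = 2.6e-04). CC and CB libraries did not overlap in either genotype. The peak at 9.54% of the length was weaker, with log2 fold changes of 1.19 in HOMO and 1.59 in WT.

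Bub1b encodes BubR1, a checkpoint kinase-like protein of the kinetochore, and 2 of its 5 inside peaks were called in both genotypes. The one at 51.9% of its length (chr2:118620484-118620984) was the most open of the higher sites, with 19.8, 27.0 and 30.3 CPM in HOMO CC, against 9.17, 12.7 and 13.2 CPM in HOMO CB (a log2 change of 1.12, SE 0.16, adjusted p = 2.9e-04). WT libraries had 22.6, 24.6 and 25.8 CPM in CC, against 9.51, 12.5 and 13.2 CPM in CB (1.06, SE 0.17, adjusted p = 0.001). HOMO and WT values overlapped in both populations. Its neighbour at 54.1% had 0.70 in HOMO and 0.91 in WT.

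Kif18a, a kinesin gene whose product limits chromosome movement at the metaphase plate, had 3 of 4 inside peaks called in each genotype. Those at 64.7% and 87.9% of its length were called in both, with log2 fold changes of 1.35 and 0.74 in HOMO and 1.52 and 1.07 in WT. The one at 10.4% was called in WT (1.62) and the one at 83.9% in HOMO (1.17). Kif14, a kinesin gene of cytokinesis, had a peak at 80.4% of its length with 2.66, 8.45 and 7.63 CPM in HOMO CC, against 0.917, 2.09 and 2.06 CPM in HOMO CB (a log2 change of 1.84, SE 0.35, adjusted p = 0.0039). In WT it had 5.43, 6.26 and 7.20 CPM in CC, against 1.12, 2.52 and 2.85 CPM in CB (1.55, SE 0.36, adjusted p = 0.0175). HOMO CC 1 was far below the other CC libraries there, though still above every HOMO CB library.

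Single inside peaks of 3 more genes were called in both genotypes. Espl1, the separase gene that cuts cohesin at anaphase, had 4.58, 4.32 and 4.78 CPM in HOMO CC, against 1.05, 1.95 and 1.75 CPM in HOMO CB, at 54.8% of its length (log2 fold change 1.42, SE 0.25, adjusted p = 0.0015). In WT it had 3.10, 4.21 and 3.68 CPM in CC, against 1.66, 1.95 and 1.19 CPM in CB (1.26, SE 0.27, adjusted p = 0.0081). A peak inside Smc4 (chr3:69016947-69017447) had 18.5, 24.4 and 25.4 CPM in HOMO CC, against 8.78, 11.4 and 10.4 CPM in HOMO CB (1.15, adjusted p = 0.0063). Its WT values were 17.5, 15.7 and 23.6 CPM in CC, against 6.63, 6.64 and 13.6 CPM in CB (1.03, adjusted p = 0.018). No CC library of either peak was as low as a CB library of its genotype. Tpx2, the gene of a spindle assembly factor that activates Aurka, had 1.27 in HOMO and 1.31 in WT (adjusted p = 0.018 and 0.0303).

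**Figure D3:**
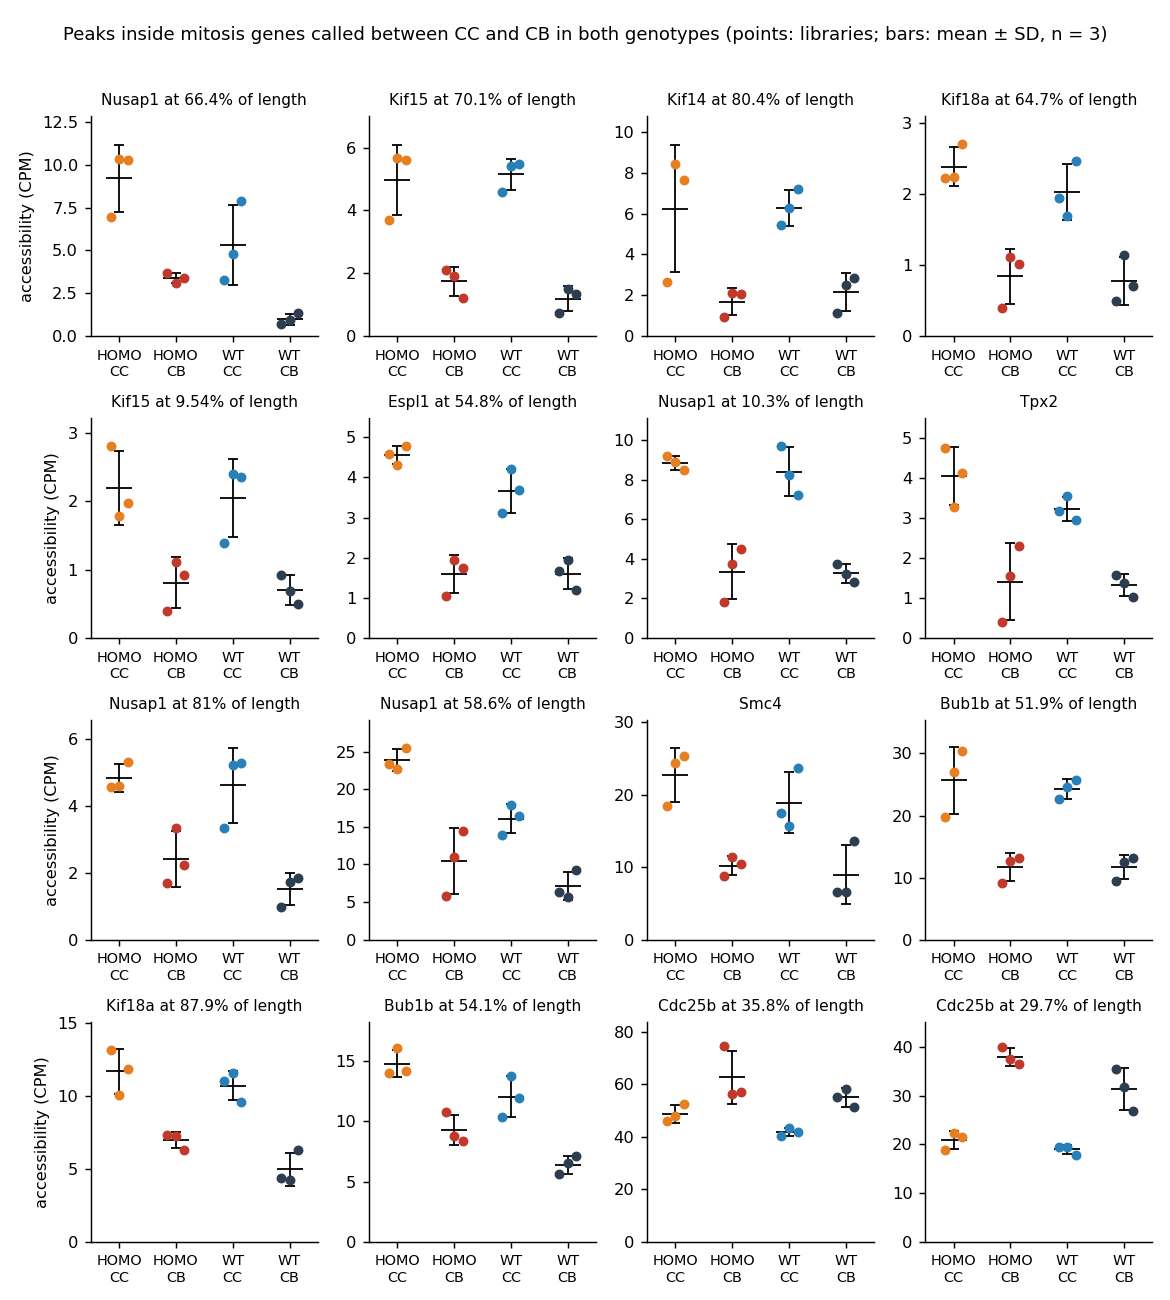
Accessibility (CPM, y axis from 0) of the 16 inside peaks called between CC and CB in both genotypes, with 1 point per library and the mean ± SD of 3 libraries, in HOMO CC, HOMO CB, WT CC and WT CB. In 14 panels the CC points lie above the CB points of the same genotype, and in the 2 Cdc25b panels they lie below.

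In all, 14 peaks at 8 genes were called higher in CC in both genotypes, which is 87.5% of the 16 higher calls in HOMO and 73.7% of the 19 in WT (inside and intergenic). Their log2 fold changes ran from 0.70 to 2.42. Calls in HOMO alone were a Kif18a peak and a second Smc4 peak (0.90). Calls in WT alone were another peak at Kif18a, the peaks at 54.9% and 26.3% of Cenpf (1.43 and 1.30), 1 inside Anln (1.43), a scaffold of the cleavage furrow, and the Ect2 peak (1.22), 15824 bp from the gene. The test of the difference between genotypes, which is the same contrast as the difference of the Pbrm1 effects above, called none of them. It was not run with paired libraries. Over the 58 inside peaks, 54 had the same sign in both genotypes, and the log2 fold changes had Pearson's r of 0.888, given as a description, since several peaks share a gene. No overlap, count of signs or correlation is given over all inside peaks. This agreement is therefore not shown to be particular to these genes.

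The firmness of these calls differed between peaks. Those of Nusap1 at 10.3% and 66.4%, Kif15 at 70.1%, Bub1b at 51.9% and Cdc25b at 29.7% held in both genotypes under each of the 21 alternative fits. The Espl1 calls held in both genotypes whichever library was left out. The WT calls of Nusap1 at 58.6%, of Kif14 and of Smc4 were lost without WT CB 1, those of Kif14 also without WT CC 2 and those of Smc4 also without WT CB 2 or WT CC 3, while their HOMO calls held in every such fit. The Kif15 call at 9.54% was lost in HOMO in 8 of the 12 fits that left out a library and in WT in 3 of the 12. At Tpx2 the call was lost in 2 of the 12 in HOMO and in 5 of the 12 in WT, and at 81.0% of Nusap1 in 4 of the 12 in HOMO and in 0 in WT. The Kif18a calls were lost in 3 of the 12 in each genotype at 64.7% of its length, and at 87.9% in 2 in HOMO and 0 in WT, and the Bub1b call at 54.1% in 3 in HOMO and 0 in WT. Of the calls in 1 genotype, Kif18a at 10.4% held in every such fit, while those of Cenpf, Anln and Ect2, of Kif18a at 83.9% and of the second Smc4 peak were lost in 2 to 6 of the 12.

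**Figure D4:**
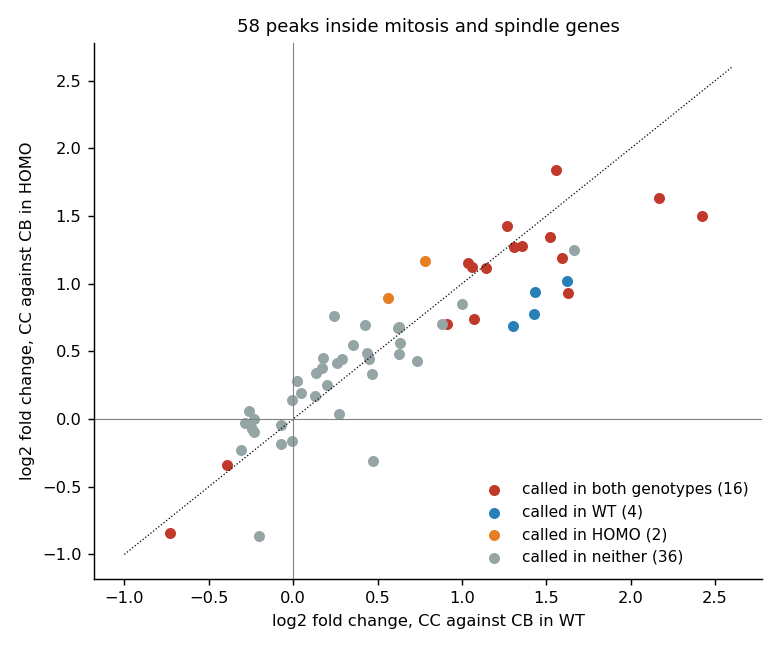
Log2 fold change of CC against CB for the 58 inside peaks in WT (x axis) and HOMO (y axis), coloured by the genotype in which each was called, with the line of equal values dotted. Most points lie above 0 on both axes and near the line, and 16 peaks were called in both genotypes.

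Cdc25b went the other way. It encodes a phosphatase that activates Cdk1 at the entry into mitosis, and 2 of its 3 inside peaks were called lower in CC in both genotypes. The peak at 29.7% of its length (chr2:131189767-131190267) had 18.9, 22.3 and 21.4 CPM in HOMO CC, against 40.0, 37.5 and 36.4 CPM in HOMO CB (a log2 change of -0.84, SE 0.12, adjusted p = 1.8e-04). In WT it had 19.6, 19.4 and 17.9 CPM in CC, against 35.6, 31.8 and 26.9 CPM in CB (-0.73, SE 0.12, adjusted p = 0.0013). CC values were below CB values in every library. Its neighbour at 35.8% had -0.34 in HOMO (adjusted p = 0.0494) and -0.39 in WT (adjusted p = 0.0316), and the call was lost in 9 of the 12 fits that left out a library in HOMO and in 5 of the 12 in WT.

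By role, all 5 inside peaks of the spindle assembly genes, 4 in Nusap1 and 1 in Tpx2, were called higher in each genotype. So were 6 of 11 inside peaks of the kinesin genes, all in Kif14, Kif15 and Kif18a. Of the 10 inside peaks of the checkpoint and separation genes, 3 were. The counts in HOMO and in WT were 2 and 1 of 12 for condensin and mitotic chromosome genes, 0 and 2 of 4 for kinetochore genes, and 0 and 1 of 8 for cytokinesis genes. The 8 inside peaks of the cyclin and entry genes had 0 higher and the 2 lower ones of Cdc25b. Inside peaks of Ttk, Ncapg, Racgap1, Kif20b, Cenpe and Ccnb2 did not pass the test, with values such as 1.25 in HOMO and 1.66 in WT at Kif20b (adjusted p = 0.138 and 0.102).

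The position of the sites along the genes was examined for the 49 inside peaks of genes with a known strand. Beyond 50% of the gene's length, 11 of 28 were called higher in HOMO and 12 of 28 in WT (39.3% and 42.9%), against 6.33% and 4.71% of all inside peaks there. Before that point, 2 of 21 were called higher in HOMO and 4 of 21 in WT (9.52% and 19.0%), against 5.01% and 3.76%. Chromosome 2 held 10 of the higher inside peaks in each genotype, at Nusap1, Bub1b, Kif18a and Tpx2, of its 19 inside peaks of these genes. Of all inside peaks of any gene on chromosome 2, 6.28% were called higher in HOMO and 5.13% in WT.

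**Figure D5:**
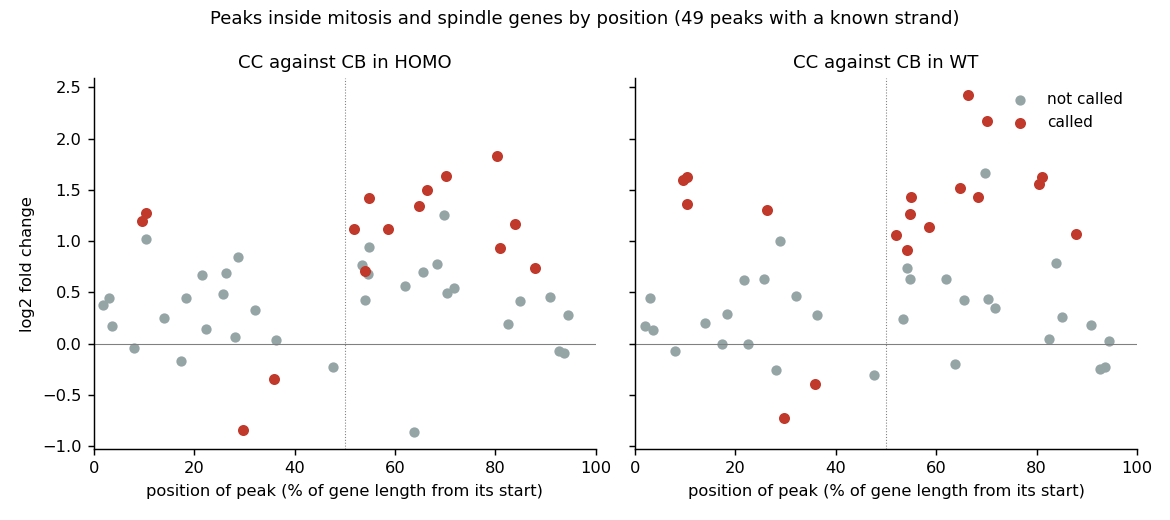
Log2 fold change of CC against CB (y axis) against the position of each inside peak as a percentage of its gene's length from the start (x axis), for 49 peaks in HOMO (left) and WT (right), with called peaks in red. Red points above 0 stand mostly to the right of 50%, where 11 peaks in HOMO and 12 in WT were called higher, and the red points below 0 are those of Cdc25b.

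The counts were also split by the level of the site. In HOMO, 6 of 28 inside peaks under 2 log2 CPM and 9 of 21 from 2 to 4 were called higher (7.21% and 6.22% of all inside peaks of those levels). Of the 9 at 4 or more, 1 was higher and 2 lower, against 2.26% and 4.41% of all such peaks. In WT the counts were 10 of 28, 7 of 21 and 1 of 9 higher (6.27%, 4.24% and 1.06% of all). At 4 or more, 2 of the 9 were lower in WT, against 5.02% of all such peaks. Summed over the 58 peaks, the signal was 573 to 610 CPM in HOMO CC and 488 to 519 CPM in HOMO CB, and 532 to 557 CPM in WT CC and 483 to 500 CPM in WT CB, so CC and CB libraries did not overlap in either genotype. Summed over the 64 gene-end peaks, it was 2169 to 2193 CPM in HOMO CC and 2162 to 2201 CPM in HOMO CB, which overlap. In WT the sums were 2186 to 2286 CPM in CC and 2325 to 2400 CPM in CB, which do not. Gene ends in general were lower in WT CC, with a median log2 fold change of -0.09 over all of them and -0.04 over these 64.

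Equal replicate numbers paired CC and CB libraries within a genotype. With a term for each pair, 26 of 58 inside peaks were called higher and 3 lower in HOMO (14.9% and 10.3% of all inside peaks), and 26 higher and 6 lower in WT (12.8% and 11.3%). Of the 69 intergenic peaks this paired fit called 5 higher and 6 lower in HOMO (15.2% and 9.94% of all intergenic peaks), and 5 higher and 5 lower in WT (12.2% and 10.3%). With library scaling that follows abundance, the inside counts were 13 higher and 1 lower in HOMO and 12 higher and 1 lower in WT (4.54% and 2.9% of all inside peaks higher).

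Markers of other cells moved with the populations. The gene-end peaks of the naive and follicular B cell list (4 of 5 genes; Ighd had none) summed to 107 to 117 CPM in HOMO CC and 90.6 to 102 CPM in HOMO CB, and to 103 to 109 CPM in WT CC and 89.3 to 98.0 CPM in WT CB. Those of the germinal center list (6 of 7 genes) summed to 205 to 210 CPM in HOMO CC and 223 to 228 CPM in HOMO CB, and to 187 to 198 CPM in WT CC and 209 to 224 CPM in WT CB. Of 17 peaks assigned to myeloid markers, 5 were called higher in HOMO CC and 4 in WT CC, with 0 at a gene end and no peak at Lyz2. Of all peaks away from gene ends, 5.87% were called higher in HOMO CC and 4.18% in WT CC. The plasma cell sums given above were lower in every CC library than in every CB library of the same genotype. Jchain of that list went the other way in WT, at 36.8 to 38.5 CPM in WT CC and 29.4 to 34.5 CPM in WT CB. In HOMO its values overlapped, at 36.5 to 41.1 CPM in HOMO CC and 37.5 to 39.8 CPM in HOMO CB. The B cell sums overlapped between CC and CB in HOMO and were lower in CC in WT, and the natural killer sums overlapped in both genotypes. The part of these markers in the result was not tested.

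A further list of 103 mitosis genes, not among the 53, was counted in the same way and had 382 peaks at 94 genes, 122 of them at gene ends. In HOMO CB, 0 gene-end peaks were called higher and 14 lower (11.5%, against 9.19% of all gene-end peaks), and 3 of the 260 others were higher and 5 lower (1.15% and 1.92%, against 0.936% and 2.25%). In HOMO CC, 0 gene-end peaks were higher and 8 lower (6.56%, against 5.59%), and 4 others were higher and 1 lower (1.54% and 0.385%, against 0.692% and 1.15%). These shares of losses at gene ends were near those of all gene-end peaks. Between CC and CB, 14 of its 167 inside peaks were higher and 5 lower in HOMO, and 15 higher and 6 lower in WT (8.38% and 8.98% higher, against 5.66% and 4.2% of all inside peaks). At gene ends 0 of 122 were called by unpaired edgeR or DESeq2 (4 in HOMO and 5 in WT at an unadjusted p under 0.05), while the paired fit called 3 higher and 1 lower in HOMO and 2 higher and 12 lower in WT. Beyond 50% of the gene's length, 2 of its 45 inside peaks of known strand were higher in each genotype (4.44%, against 6.33% of all inside peaks there in HOMO and 4.71% in WT), and before that point 6 of 81 (7.41%, against 5.01% and 3.76%). The median inside peak had a log2 fold change of 0.15 in HOMO and 0.16 in WT. CHR was found in 41.5% and CCAAT in 59.8% of the 82 promoters of this list in the table.

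The called peaks of smallest p in this list were the following. At Mybl2, which encodes the B-Myb activator of mitosis genes, a peak 1085 bp into the gene averaged 11.8 ± 1.54 CPM in HOMO CB and 22.2 ± 2.68 CPM in WT CB (SD, n = 3 each; log2 fold change -0.90, adjusted p = 0.0017 by edgeR). A peak 4592 bp from Wapl, the gene of a factor that releases cohesin, averaged 18.2 ± 0.39 CPM in HOMO CB and 3.06 ± 1.63 CPM in WT CB (SD, n = 3 each; 2.49, adjusted p = 0.0025 by edgeR) and was higher in HOMO CC as well (2.41, adjusted p = 0.006); it lies on chromosome 14, as Pbrm1 does. The start peak of Mis18a, a gene of centromere assembly, was lower in both populations by edgeR. Its log2 fold change was -1.27 in HOMO CB (adjusted p = 0.003) and -1.06 in HOMO CC (adjusted p = 0.0138). A peak inside Stag1, a cohesin gene, was lower in CC, with -0.82 in HOMO and -1.02 in WT (adjusted p = 7.5e-04 and 2.5e-04), and one 11247 bp from the kinetochore gene Cenpi was higher, with 1.80 in HOMO and 1.40 in WT (adjusted p = 1.2e-04 and 0.0022).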

How the data were processed

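Per the file headers, the deposited file holds whole-number counts, not normalized, of 12 libraries over 68689 peaks on mm10. The submitters' processing notes list the tools deepTools, FastQC, BWA and R (4.2.1), with no roles. How peaks were called and counted, and how duplicates and the offset of Tn5 were treated, is not stated there. The genes, their roles, the lists and the tests were chosen with earlier results of these data known.

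Groups and replicate numbers came from the labels. Counts were scaled with TMM factors and fitted with edgeR 4.0.16 (R 4.3.3), with a mean for each group over the 12 libraries and robust, two-sided quasi-likelihood F tests. Adjustment (Benjamini-Hochberg) ran over all peaks, with a threshold of 0.05. The filter filterByExpr removed 0 peaks. TMM factors also scale the CPM values. The common biological coefficient of variation was 0.142, and in CB the standard error of a fold change was 0.20 (log2, median over peaks). Replicates differed by 2.28 to 7.66 times what counting error alone gives (chi-square per degree of freedom).

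Gene spans (21627 protein-coding) and promoters came from RefSeq (GRCm38.p6). Named are each gene's main gene-end peak, every called peak and, in the further list, the called peak of smallest p in each direction. Deviations from group means correlated at 0.206 to 0.518 between same-numbered CC and CB libraries of a genotype (6 pairs) and at -0.343 to 0.125 between differently numbered ones, so numbers pair them. DESeq2 1.42.0 was an alternative test; the other alternatives are in the closing section. The fit was checked on simulated data. A marker list is not reported here. Values were tabulated with pandas 2.3.3 and numpy 2.4.6 in Python 3.11.15 and with the R package data.table (1.17.8), and drawn with matplotlib 3.10.9.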

Additional observations from a re-analysis of the deposited data

How the results depend on the processing

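The main counts were 8 called peaks for HOMO against WT in CB, 4 for HOMO against WT in CC, 18 for CC against CB in HOMO and 21 for the same in WT, and no call reversed under any alternative. RLE size factors, a minimum average of 1 log2 CPM, scaling that follows abundance, DESeq2 and assignment within 10 kb kept each count within 1.5 times. For HOMO against WT in CB, the count was 5 with only the compared groups in the fit, 17 with log2 library total as a covariate, 16 when the HOMO libraries numbered 1 were dropped and 4 when the WT libraries numbered 2 were. For HOMO against WT in CC, it was 14 with the covariate, 10 when those HOMO libraries were dropped and 0 when those WT libraries were. With the covariate, CC against CB gave 29 in HOMO and 32 in WT, where dropping the WT libraries numbered 2 left 7. The covariate raised calls over all peaks as well. Of all gene-end peaks, 18.5% were then lower in HOMO CB and 13.2% in HOMO CC, against 9.19% and 5.59% in the main fit. Of all inside peaks, 9.91% were then higher in CC in HOMO and 8.14% in WT, against 5.66% and 4.2%.

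With a term for each pair of CC and CB libraries, CC against CB gave 43 calls in HOMO and 48 in WT. Calls rose over all peaks too. Of all inside peaks, 14.9% were called higher in HOMO and 12.8% in WT, against 5.66% and 4.2% in the main fit. Across genotypes, equal numbers correlated at -0.011 to 0.399 and were not treated as pairs in the main fit. A different block was also tried for HOMO against WT, with a term for each number shared by both genotypes. It gave 27 calls in CB and 16 in CC. It called 20.5% of all gene-end peaks lower in CB and 15.3% in CC, against 9.19% and 5.59% in the main fit. Leaving out 1 library gave 2 to 11 calls for HOMO against WT in CB, with 2 when WT CB 1 was left out, 3 for HOMO CB 2, 4 for HOMO CB 3 and 5 for WT CB 3. In CC it gave 0 to 6, with 0 for HOMO CC 2, HOMO CC 3 or WT CC 2, 1 for WT CC 1 and 2 for HOMO CB 2 or WT CB 1. CC against CB gave 10 to 20 calls in HOMO, with 10 for HOMO CB 3 or HOMO CC 3 and 11 for HOMO CC 2, and 12 to 23 in WT, with 12 for WT CB 1 and 13 for WT CC 2. Of the called peaks, 2 of 8, 0 of 4, 9 of 18 and 10 of 21, in the order of the first sentence, held whichever library was left out. The difference of effects gave 0 calls in every fit run, but it was not tested with CC and CB libraries paired within a genotype. The causes of these shifts were not tested.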
